A study of Mus musculus with 8 samples.

Results

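Mature oligodendrocytes were identified in brain tissue of naïve and GL261 tumour-bearing mice profiled by Drop-seq, a droplet method that counts the transcripts of single cells by unique molecular identifiers (UMIs). In each of the 8 libraries barcodes were ranked by UMIs, and those of the top 1000 with at least 1000 detected genes were kept, which left 5733 cells. A cell was called a mature oligodendrocyte when the UMIs of *Mobp*, *Mog*, *Mag*, *Cldn11* and *Ermn* summed to at least 20 per 10000 of its UMIs and at least 3 of these 5 genes were detected, provided that the tumour genes *Col9a1*, *Lect1* and *Rhox5* summed to less than 10 and the astrocyte genes *Slc1a2*, *Slc1a3*, *Aqp4*, *Gja1*, *Aldoc* and *Gpr37l1* to less than 80. Of 426 cells that passed the marker threshold, 49 failed on the tumour genes and 11 on the astrocyte genes, so that 366 oligodendrocytes remained, 142 in the naïve and 224 in the tumour-bearing libraries. The naïve cells comprised 78 from wild type (WT) and 64 from knock-out (KO) brain. The tumour-bearing cells comprised 86 from WT early, 25 from KO early, 20 from WT intermediate, 31 from KO intermediate, 36 from WT late and 26 from KO late tissue.

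All mice were C57BL/6 by the labels and C57BL/6N by the study's methods, and KO mice lacked *Irg1* (*Acod1*, the enzyme that makes itaconate in myeloid cells) through a cassette inserted into the gene, with age-matched WT and KO animals. Tumour-bearing mice had received intracranial implants of GL261, a cell line derived from a mouse glioma of the same strain, and were sampled at an early, intermediate or late stage set by the tumour volume on magnetic resonance imaging. Naïve mice carried no implant. The labels name 1 mouse for each tumour-bearing library and 2 for each naïve library. Each combination of genotype and stage was therefore a single library, and tumour-bearing (6 libraries) was set against naïve (2 libraries) with stages and genotypes serving as replicates of their group. Every p-value below measures the spread between these libraries. Tumour tissue was dissected from the tumour region and naïve tissue from healthy brain, so that brain region and the presence of a tumour cannot be told apart, and all samples passed through beads that remove myelin before droplets were made.

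Oligodendrocytes are the glia that wrap axons of the central nervous system in myelin, a compact membrane built from proteins such as the basic protein *Mbp* and a large supply of lipid and cholesterol. In the healthy brain they carry little major histocompatibility complex (MHC) class I, the surface complex that presents peptides to CD8+ T cells. Interferons raise MHC class I, the immunoproteasome that cuts its peptides, guanylate-binding proteins and immunity-related GTPases in many cell types, and oligodendrocytes expressing such genes, together with *C4b* and *Serpina3n*, have been described in demyelinating and degenerative disease.

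The labelled cell type was borne out by its markers, although the 5 genes of the rule are a description of the choice and not a result. The marker sum had a median of 195 per 10000 UMIs, with quartiles of 161 and 230.0 and the highest cell at 418, against a median of 0.566 in the other kept cells. The lowest members stood at 24.0, 25.6 and 27.1 and the highest cells outside the threshold at 18.1, 14.95 and 12.6, so that the threshold of 20 fell in a sparse range. All 5 genes were detected in 336 members, 4 in 28 and 3 in 2. Pooled over the members, *Mag* reached 53.9 UMIs per 10000 against 0.573 in the other kept cells, *Ermn* 55.8 against 0.280, *Cldn11* 33.3 against 0.501 and *Mobp* 31.0 against 0.266. *Mog* separated the cells least, at 12.6 against 1.39, and a *Mog* UMI was found in 24.6 to 59.3% of the other kept cells of the tumour-bearing libraries and in 1.56 and 2.76% of those of the naïve libraries. *Mbp*, which the rule did not use, stood at 68.0 per 10000 against 1.78.

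The tables held 2885345 to 9950713 UMIs each, and the oligodendrocytes of a library summed to between 69412 in KO early and 301147 in WT early. Their median depth was 2339 to 3388.5 UMIs per cell. Of all barcodes kept, 2 occurred in more than 1 library and none of these was an oligodendrocyte. The deposited sample names carried 2 sets of indices, and WT early, KO intermediate and both naïve libraries belonged to the second set. Levels below are given as CPM, that is, counts scaled to 1000000, of the UMIs of the 3234 genes tested, summed over the oligodendrocytes of a library and scaled by the trimmed mean of M-values (TMM), unless another scale is named. On this scale 1 UMI stood for 4.58 CPM in WT naïve, 5.60 in KO naïve and 15.4 in WT intermediate, so that low levels rest on few UMIs.

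The myelin programme did not differ between the groups beyond the spread between libraries. None of the 22 myelin protein genes outside the rule passed the test in either direction, their log2 fold changes ran from -0.54 to 0.87, and their median was -0.00 beside a median of 0.02 over all genes tested. *Mbp* lay at 8008 CPM in WT naïve and 6879.8 in KO naïve, and at 8066 in WT early, 10017.5 in KO early, 11614 in WT intermediate, 9587 in KO intermediate, 8942 in WT late and 8130.1 in KO late. The groups did not overlap, but WT early and KO late lay close to WT naïve, and the log2 fold change of 0.34 ± 0.24 (SE) missed the threshold (adjusted p = 0.71, edgeR quasi-likelihood test with Benjamini-Hochberg adjustment). *Mal*, a protein of myelin vesicles, lay at 4378 and 3325 CPM in the naïve libraries and between 3089.0 and 6317 CPM in the tumour-bearing ones, on both sides of the naïve values (0.21 ± 0.28). *Gsn*, which encodes the actin-severing protein gelsolin, had the highest log2 fold change of the list at 0.87 ± 0.32 and missed the threshold as well (adjusted p = 0.28, edgeR).

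**Figure D1:**
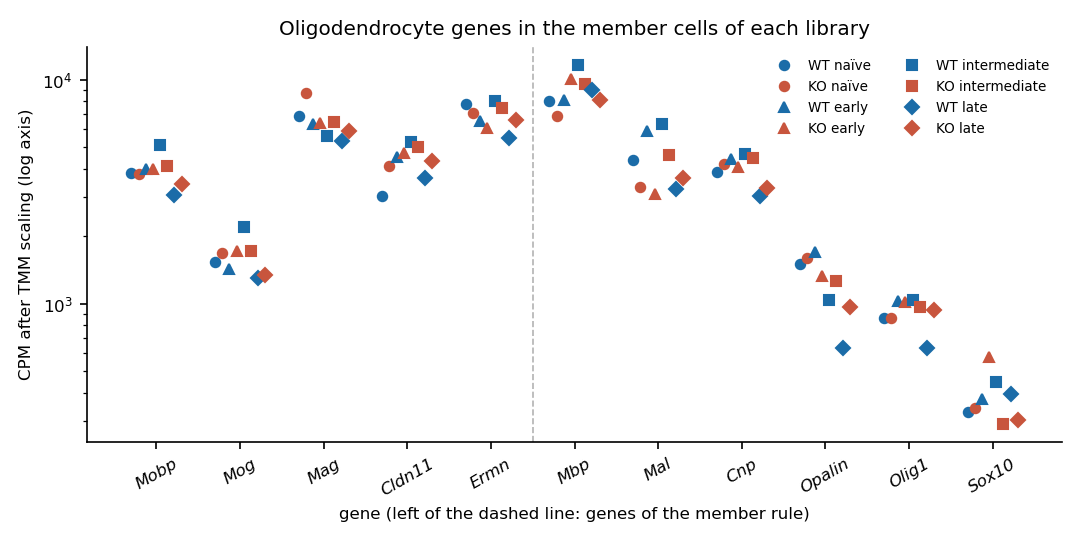
Levels of the 5 genes of the rule (left of the dashed line) and of 6 other oligodendrocyte genes, in CPM after TMM scaling on a log axis, with 1 point for each library (WT in blue, KO in red, shapes for stages). The naïve circles of *Mal*, *Cnp* and *Olig1* lie among the tumour-bearing points.

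The genes behind the identity and the lipid supply of myelin gave the same picture. Of 10 oligodendrocyte transcription factors listed, 7 had enough UMIs to be tested and none passed the threshold (median log2 fold change 0.11). *Olig1*, a factor that specifies the lineage, lay at 862 CPM in both naïve libraries and between 631 and 1035 CPM in the tumour-bearing ones. None of 12 tested genes of myelin lipid synthesis and none of 10 tested genes of cholesterol synthesis passed the threshold, with medians of -0.10 and 0.03. *Scd2*, a desaturase of fatty acids, had a log2 fold change of -0.08 ± 0.24, and *Ugt8a*, the enzyme that makes galactosylceramide, one of -0.11 ± 0.21. Heat shock and chaperone genes stood at a median of 0.02 with none of 12 past the threshold, and *Hsp90aa1*, the inducible cytosolic chaperone, had the lowest log2 fold change among them at -0.66 ± 0.22 (adjusted p = 0.20, edgeR).

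The proportion of oligodendrocytes did not separate the groups. Among kept cells without the tumour genes, oligodendrocytes made up 16.8% in WT naïve and 13.8% in KO naïve. In the tumour-bearing libraries they made up 18.5% in WT early, 10.9% in KO early, 25.3% in WT intermediate, 10.8% in KO intermediate, 24.3% in WT late and 9.19% in KO late. The means were 16.5% ± 7.22 (SD, n = 6) and 15.3% ± 2.14 (SD, n = 2), and the difference of 1.16 percentage points had a p of 0.929 in an exact two-sided permutation test, which could not go below 0.0714. The 3 WT tumour-bearing libraries lay above both naïve libraries and the 3 KO ones below both, with WT and KO represented by 1 mouse at each stage. Counted over all kept cells, tumour cells included, the share was 10.5 points lower in the tumour-bearing libraries (exact permutation p = 0.0714). Dissection, dissociation and the myelin-removal beads all act on such shares, and their part was not tested.

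Across the transcriptome, 30 of 3234 genes tested were higher in oligodendrocytes of tumour-bearing mice (0.928%) and 11 were lower (0.34%) at an adjusted p under 0.05. The genes that rose included the interferon-inducible *Bst2*, *Gbp3*, *Ifi27l2a* and *Rtp4*, MHC class I and its processing machinery (*B2m*, *H2-D1*, *H2-K1*, *Psmb8*, *Psme1*), the protease inhibitor *Serpina3n*, the complement gene *C4b* and the transcription factor gene *Fos*. Those that fell included *Ttr*, *Sparcl1*, *Clu* and *Slc4a4*, transcripts abundant in choroid plexus and astrocytes, and the mitochondrially encoded *mt-Co1*. All 6 tumour-bearing libraries lay above both naïve libraries for 22 of the 30 genes, beside 5.38% of all genes tested, and below both for the 8 genes that fell outside the rule, beside 5.63%. The genes were called on these same libraries, so that the counts describe the calls and add no support to them. The other 3 of the 11 are astrocyte genes that the rule used to choose the cells, so that their lower levels are not read as a result. Because RNA was summed over cells, a change in a few cells and a change in all of them cannot be told apart from these sums alone, and the values per cell are therefore given further on. The calls depended on the naïve libraries, with 4 higher and 3 lower genes left without WT naïve. Without KO naïve no gene was called in either direction by edgeR, with 167 genes at an unadjusted p under 0.05.

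MHC class I and peptide processing formed the group with the most changed genes. Of 21 genes listed, 17 were tested, 9 rose and none fell, beside 0.928% that rose and 0.34% that fell over all genes tested. All 17 log2 fold changes were positive, with a median of 4.21 against 0.02 over all genes tested. For 1 of the 17, at 0 in both naïve libraries, no other sign was possible. The list summed to 1976 CPM in WT naïve and 1629 in KO naïve. It summed to 15412 in WT early, 25864 in KO early, 2255 in WT intermediate, 17975 in KO intermediate, 6126 in WT late and 25272 in KO late. WT intermediate therefore stood close to the naïve libraries, and WT early and the 3 KO tumour-bearing libraries stood highest.

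*B2m*, the invariant light chain of MHC class I (chromosome 2, 122147686 to 122153083 on the plus strand in GRCm38), had 321 CPM in WT naïve and 274 in KO naïve. It had 6749 CPM in WT early, 12879.6 in KO early, 726 in WT intermediate, 7866 in KO intermediate, 2387 in WT late and 11122 in KO late. The groups did not overlap, and the log2 fold change was 4.19 ± 0.77 (adjusted p = 0.0216, edgeR). The classical heavy chain *H2-D1* (chromosome 17, 35262730.0 to 35267499) had 156 and 78.4 CPM in the naïve libraries against 3385, 5497, 247, 4230.1, 809 and 4210.0 CPM in the same order of tumour-bearing libraries. Again no tumour-bearing library fell within the naïve range, and the log2 fold change was 4.33 ± 0.89 (adjusted p = 0.0317, edgeR). *H2-K1*, the other classical heavy chain (chromosome 17, 33996017 to 34000347), rose from 142 and 67.2 CPM to between 293 in WT intermediate and 2586 in KO late, a log2 fold change of 3.38 ± 0.64 (adjusted p = 0.0233, edgeR).

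Among the non-classical heavy chains, *H2-T23* had 4.58 and 11.2 CPM in the naïve libraries, was at 0 in WT intermediate, and reached 1029.7 CPM in KO early, with a log2 fold change of 5.87 ± 1.20 (adjusted p = 0.0317, edgeR). The genes of the H2 family share long stretches of near-identical sequence, so that the assignment of UMIs among their members is uncertain. The immunoproteasome subunit *Psmb8* had 13.8 and 27.99 CPM in the naïve libraries. It had 719 CPM in WT early, 855 in KO early, 15.4 in WT intermediate, 727 in KO intermediate, 64.7 in WT late and 1334 in KO late, so that WT intermediate lay within the naïve range (log2 fold change 4.81 ± 1.06, adjusted p = 0.0429, edgeR). *Psme1*, an activator of the proteasome, rose from 4.58 and 11.2 CPM to between 15.4 and 384 CPM without overlap (4.21 ± 0.76 on the log2 scale, adjusted p = 0.0205, edgeR). The low *Psme1* values stood for 1 and 2 UMIs in the naïve libraries and 1 UMI in WT intermediate. The chaperones *Calr* and *Pdia3*, which load MHC class I in every cell, were the most abundant genes of the list that missed the threshold, with log2 fold changes of 0.49 ± 0.34 and 0.19 ± 0.31. *Tapbp*, which bridges the heavy chain to the peptide transporter, did not overlap between the groups but also missed the threshold (2.92 ± 0.68, adjusted p = 0.06, edgeR).

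Interferon-inducible GTPases, which attack the vacuoles of intracellular microbes, were almost silent in the naïve cells. The 14 genes of the list summed to 41.3 and 50.4 CPM in the naïve libraries, to 124 in WT intermediate and 259 in WT late, and to 3511 in WT early, 5236 in KO early, 2921 in KO intermediate and 4454 in KO late. Of 9 genes tested, 2 rose, beside 0.928% of all genes tested. All 9 log2 fold changes were positive with a median of 6.71. For 6 of the 9, at 0 in both naïve libraries, no other sign was possible. The median was 4.83 with the 6 genes at 0 in both naïve libraries set to their lower bound. The bound used a floor of 3 UMIs over the naïve group. The guanylate-binding protein gene *Gbp3* (chromosome 3, 142560026 to 142573209) had 4.58 and 0 CPM in the naïve libraries against 311 in WT early, 489 in KO early, 46.3 in WT intermediate, 364 in KO intermediate, 56.6 in WT late and 557 in KO late (log2 fold change 6.39 ± 1.03, adjusted p = 0.0117, edgeR). The naïve group held 1 *Gbp3* UMI in all and WT intermediate 3. *Irgm1*, a regulatory immunity-related GTPase, had 4.58 and 16.8 CPM in the naïve libraries and 559, 995, 0, 667, 56.6 and 591 CPM in the tumour-bearing ones (5.41 ± 1.17, adjusted p = 0.0383, edgeR). *Iigp1* and *Igtp* were the most abundant of the list and were not detected in the 142 naïve oligodendrocytes. Their levels were at least 80.5-fold and at least 56.0-fold higher over the tumour-bearing group, yet both missed the threshold (adjusted p of 0.0579 and 0.0541, edgeR), with no *Iigp1* or *Igtp* UMI in WT intermediate.

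Of 28 type I interferon-stimulated genes, 20 were tested and 6 rose, with all 20 log2 fold changes positive, a median of 4.78 (3.53 with genes at 0 in the naïve libraries at their bound) and 11 genes without overlap. The 7 tested genes at 0 in both naïve libraries could have no other sign. Over all genes tested, 0.928% rose and 5.38% lay above both naïve libraries in this way. *Bst2*, which encodes the virus-tethering protein tetherin, had the lowest adjusted p of all genes that rose. It had 9.17 and 11.2 CPM in the naïve libraries and 210.3 CPM in WT early, 489 in KO early, 124 in WT intermediate, 158 in KO intermediate, 291 in WT late and 476 in KO late, with every tumour-bearing library well above the naïve ones (log2 fold change 4.69 ± 0.64, adjusted p = 0.00452, edgeR). *Ifi27l2a* rose from 68.8 and 22.4 CPM to between 293 and 2600.4 CPM (3.81 ± 0.70, adjusted p = 0.0216, edgeR), and *Rtp4* from 4.58 and 0 to between 15.4 and 220.4 CPM (4.98 ± 0.92, adjusted p = 0.0225, edgeR). For *Rtp4*, WT naïve and WT intermediate each held 1 UMI. *Ifit1* and *Oasl2*, an inhibitor of foreign RNA and a member of the oligoadenylate synthetase family, were at 0 in both naïve libraries and at least 11.6-fold and at least 15.8-fold higher over the tumour-bearing group. *Xaf1*, the most abundant tested gene of the list that missed the threshold, had a log2 fold change of 1.32 ± 0.56 (adjusted p = 0.40, edgeR).

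In the interferon signalling list, 8 of 16 genes had enough UMIs to be tested. *Stat3* had a log2 fold change of 1.48 ± 0.47 and the receptor-bound kinase gene *Jak1* one of 0.11 ± 0.38, and neither passed the threshold (adjusted p of 0.18 and 0.97, edgeR). The receptor genes *Ifngr1*, *Ifngr2*, *Ifnar1* and *Ifnar2* were too low to be tested.

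Proximal promoters are shown for genes of these lists because the genes moved together and 2 short motifs belong to the factors that interferons activate. Sequences are the 250 bases before the annotated start in RefSeq (GRCm38.p6), 5′ to 3′ on the gene's strand, with matches in capitals. The interferon-stimulated response element was searched as GAAANNGAAA and the gamma-activated site as TTCNNNGAA, each on both strands, where matches may overlap.
B2m, chr2:122147437-122147686, plus strand: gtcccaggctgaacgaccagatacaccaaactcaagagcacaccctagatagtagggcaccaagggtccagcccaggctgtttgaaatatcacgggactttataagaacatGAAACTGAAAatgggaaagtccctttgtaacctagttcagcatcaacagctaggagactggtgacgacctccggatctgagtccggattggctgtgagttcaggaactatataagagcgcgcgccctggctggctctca
Gbp3, chr3:142559794-142560043, plus strand: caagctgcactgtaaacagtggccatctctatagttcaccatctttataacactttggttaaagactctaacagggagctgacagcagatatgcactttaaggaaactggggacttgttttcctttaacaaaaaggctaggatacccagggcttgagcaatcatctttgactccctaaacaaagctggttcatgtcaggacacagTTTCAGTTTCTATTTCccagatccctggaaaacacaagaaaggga
Irgm1, chr11:48871421-48871670, minus strand: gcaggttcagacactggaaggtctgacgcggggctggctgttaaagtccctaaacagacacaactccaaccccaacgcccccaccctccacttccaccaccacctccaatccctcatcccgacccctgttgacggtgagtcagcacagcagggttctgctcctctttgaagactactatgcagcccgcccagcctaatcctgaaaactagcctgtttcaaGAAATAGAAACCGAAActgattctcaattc
Ifit1, chr19:34640639-34640888, plus strand: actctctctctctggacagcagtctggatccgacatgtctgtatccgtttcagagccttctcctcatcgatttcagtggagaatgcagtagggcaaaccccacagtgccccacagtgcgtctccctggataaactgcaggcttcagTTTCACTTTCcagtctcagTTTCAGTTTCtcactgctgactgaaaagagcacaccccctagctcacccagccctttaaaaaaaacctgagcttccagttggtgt
Psmb8, chr17:34197945-34198194, plus strand: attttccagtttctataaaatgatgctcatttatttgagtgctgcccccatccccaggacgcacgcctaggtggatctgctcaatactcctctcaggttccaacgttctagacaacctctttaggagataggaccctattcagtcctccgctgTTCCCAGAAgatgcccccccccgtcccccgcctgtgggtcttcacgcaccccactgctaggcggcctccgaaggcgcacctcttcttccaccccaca

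The capitals mark a response element in *B2m*, a pair of overlapping response elements in *Gbp3* and in *Irgm1*, a pair of separate ones in *Ifit1* and a gamma-activated site in *Psmb8*. Of the 30 genes that rose, 24 had a promoter entry, with 28 windows in all. A response element lay in the window of 9 genes (*B2m*, *Bst2*, *Gbp3*, *Gm12250*, *H2-T22*, *H2-T23*, *Ifit1*, *Irgm1* and *Snx10*), or 32.1% of their windows, beside 2.98% of all 32851 windows of this length. A gamma-activated site lay in the window of 3 genes, or 10.7% of windows, beside 7.02% of all windows. These matches describe letters in a window and are no record of binding.

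**Figure D2:**
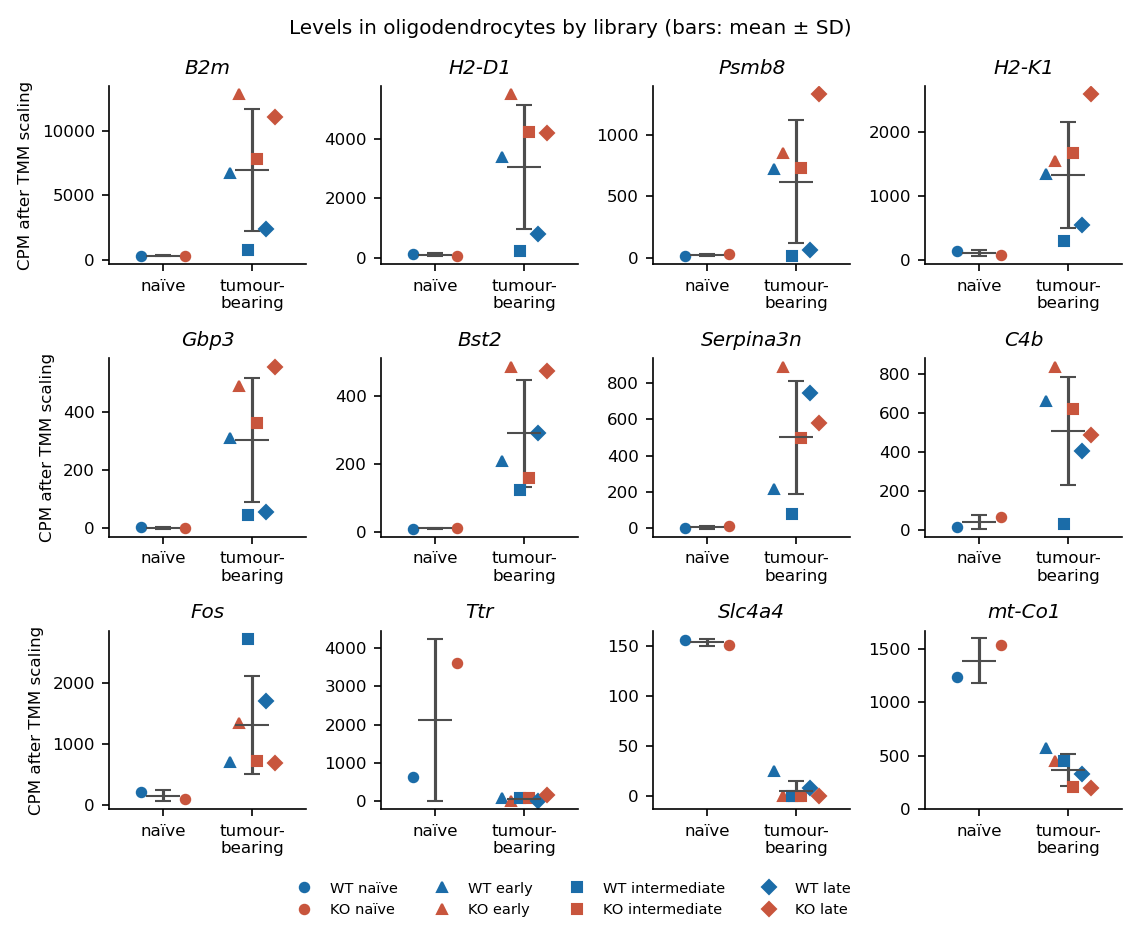
Levels of 12 genes that differed between the groups, in CPM after TMM scaling on a linear axis, with 1 point for each library (WT in blue, KO in red, shapes for stages) set apart sideways and bars for mean ± SD. WT intermediate and WT late lie below the other tumour-bearing libraries for *B2m*, *Psmb8* and *Gbp3* and not for *Fos*.

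Measured cell by cell, MHC class I transcripts were high in a fraction of the oligodendrocytes of some tumours. The sum of the MHC class I list per 10000 UMIs had a median of 10.8 in WT naïve and 10.96 in KO naïve, and the highest naïve cell reached 122. Medians were 54.1 in WT early, 183 in KO early, 10.9 in WT intermediate, 68.3 in KO intermediate, 27.3 in WT late and 208 in KO late. Cells above the highest naïve cell numbered 32 of 86 in WT early (37.2%), 16 of 25 in KO early (64.0%), 15 of 31 in KO intermediate (48.4%), 19 of 26 in KO late (73.1%), 2 of 36 in WT late (5.56%) and 0 of 20 in WT intermediate, where a count of 0 allows a share of up to 15%. Cells with low values remained in every library. Members with at least 5 UMIs per 10000 of immune-cell genes were then left out. The shares were 37.5% in WT early, 62.5% in KO early, 48.4% in KO intermediate and 68.4% in KO late. No cell above the highest naïve cell was left in WT late.

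**Figure D3:**
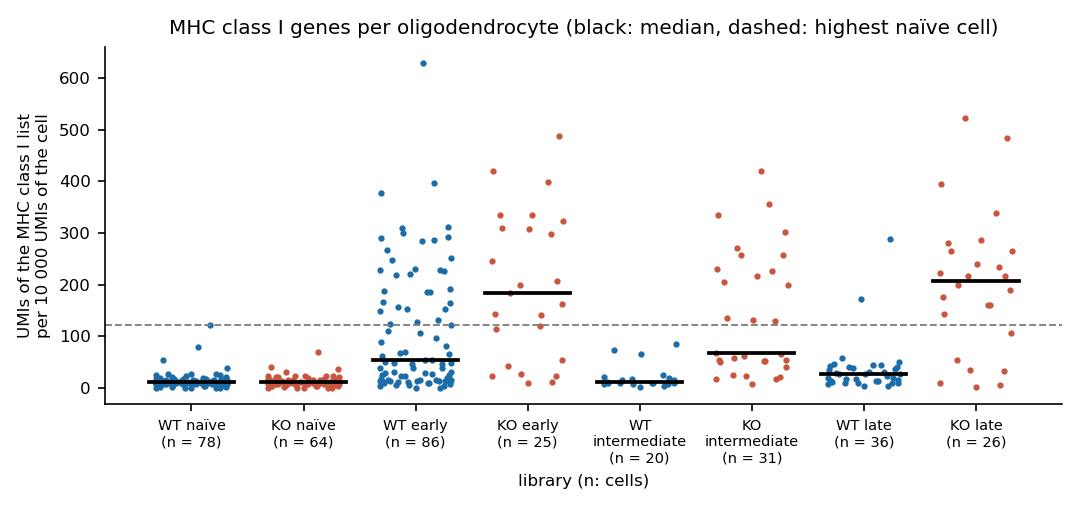
Sum of the MHC class I list in each oligodendrocyte, in UMIs per 10000 UMIs of the cell, by library, with WT in blue and KO in red, the median as a black line and the highest naïve cell as a dashed line at 122. Cells above the dashed line make up 37.2 to 73.1% of WT early and the 3 KO tumour-bearing libraries.

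The same cells that were high in MHC class I also carried other genes of the response, given here as a description, since the cells were chosen by their values and share a library. In WT early, a *C4b* UMI was present in 96.9% of the cells above the highest naïve cell and in 13.0% of the others, and an *Igtp* UMI in 93.8 and 7.41%. In KO late, *C4b* was present in 94.7 and 14.3% and *Igtp* in 84.2 and 28.6%. In KO intermediate the shares were 80% and 25% for *C4b* and 60% and 12.5% for *Igtp*. In KO early, *C4b* was present in 87.5 and 11.1%, whereas *Igtp* was also common in the other cells (81.3 and 55.6%). *Serpina3n* was found in 34.4, 43.8, 53.3 and 52.6% of the high cells of WT early, KO early, KO intermediate and KO late, and in 0, 11.1, 12.5 and 0% of the others. Median depths of the high and the other cells were 3309 and 2613.5 UMIs in WT early, 2475.5 and 2339 in KO early, 2681 and 2401 in KO intermediate and 3389 and 3388 in KO late. *Il33*, a cytokine of mature oligodendrocytes, was found in 100% of the high and 87.0% of the other cells of WT early, in 93.8 and 88.9% in KO early, in 100 and 87.5% in KO intermediate and in 68.4 and 71.4% in KO late.

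Among genes linked to reactive oligodendrocytes, *Serpina3n* and *C4b* rose, beside 0.928% of all genes tested. The other 8 tested genes of the list did not pass the threshold (median log2 fold change of all 10 tested 0.81). *Serpina3n*, a secreted inhibitor of serine proteases (chromosome 12, 104406729 to 104414329), had 0 and 11.2 CPM in the naïve libraries. It had 214 CPM in WT early, 890.1 in KO early, 77.2 in WT intermediate, 497 in KO intermediate, 745 in WT late and 579.9 in KO late, without overlap (log2 fold change 6.37 ± 0.99, adjusted p = 0.011, edgeR). WT late, which was low in MHC class I, was thus among the highest for *Serpina3n*. With every cell thinned to 1500 UMIs, a *Serpina3n* UMI was found in a median of 26.5% of oligodendrocytes of the tumour-bearing libraries (range 9.30 to 34.6%; unthinned median 32.1%) against 0.781% in the naïve ones (unthinned 1.56%), with 0% in endothelial cells of either group by the median, 11.1% in tumour-bearing and 0.901% in naïve astrocytes (unthinned 15.4 and 2.73%), and 40.6% in the tumour cells.

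*C4b*, the complement component that marks targets for the classical pathway (chromosome 17, 34728380 to 34743882 on the minus strand), had 18.3 and 67.2 CPM in the naïve libraries. It had 660.2 CPM in WT early, 838 in KO early, 30.9 in WT intermediate, 618 in KO intermediate, 405 in WT late and 487 in KO late, so that WT intermediate lay within the naïve range (log2 fold change 3.66 ± 0.73, adjusted p = 0.0296, edgeR). On the scale of all UMIs, *C4b* was higher in the oligodendrocytes than in the tumour cells in 5 of the 6 tumour-bearing libraries, for example 521 against 184 CPM in WT early and 395 against 197 in KO late, and lower in WT intermediate (25.6 against 76.1). Thinned to 1500 UMIs, *C4b* was found in a median of 37.1% of oligodendrocytes of the tumour-bearing libraries (unthinned 47.9%) against 4.55% in the naïve ones (unthinned 8.81%). By the median it was found in none of the endothelial cells of the tumour-bearing libraries. In astrocytes the medians were 22.2% in 5 tumour-bearing libraries and 6.37% in the naïve ones (unthinned 30.8 and 10.0%). In the tumour cells the median was 25.4% (unthinned 58.3%). The remaining complement genes were low, and 3 of 12 were tested. *C4b* was higher and *Clu* lower, beside 0.928% and 0.34% of all genes tested.

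Genes of mature oligodendrocyte states did not pass the test, although some did not overlap between the groups. *Apod*, a lipid carrier, lay at 7082 and 6762 CPM in the naïve libraries and between 9807 and 20820.3 CPM in the tumour-bearing ones without overlap (log2 fold change 1.10 ± 0.31, adjusted p = 0.12, edgeR). *Trf*, the transferrin that oligodendrocytes secrete, lay at 3291 and 4254 CPM against 4679 to 13613 CPM, also without overlap (1.14 ± 0.29, adjusted p = 0.08, edgeR). *Klk6*, a protease of a mature oligodendrocyte subtype, overlapped, with 115 and 414 CPM in the naïve libraries against 244 in WT early, 2809.8 in KO early, 232 in WT intermediate, 776 in KO intermediate, 2047 in WT late and 1253 in KO late (2.34 ± 0.79, adjusted p = 0.23, edgeR). *Il33* ranged from 896 to 2047 CPM in the tumour-bearing libraries around naïve values of 2081 and 1461 (-0.13 ± 0.32). In neither subtype list, 9 tested genes on the *Ptgds* and *Il33* side and 4 on the *Klk6* side, did any gene pass the threshold, and *Fth1*, the ferritin heavy chain, had a log2 fold change of 0.30 ± 0.27.

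Immediate early genes, which many stimuli induce within minutes, included 2 that rose, in a different order of libraries from MHC class I. Of 18 genes, 11 were tested, and *Fos* and *Junb* rose, beside 0.928% of all genes tested. All 11 log2 fold changes were positive with a median of 1.25, and 5 did not overlap, beside 5.38% of all genes tested. *Fos* had 220.0 and 89.6 CPM in the naïve libraries against 711 in WT early, 1344 in KO early, 2734 in WT intermediate, 727 in KO intermediate, 1708 in WT late and 696 in KO late (log2 fold change 3.10 ± 0.51, adjusted p = 0.0121, edgeR). WT intermediate and WT late, lowest for MHC class I, were the highest for *Fos*. *Junb*, a partner of *Fos* in the AP-1 factor, had 64.2 and 33.6 CPM against 122 to 429 CPM (2.51 ± 0.52, adjusted p = 0.0322, edgeR). *Jun* did not overlap and missed the threshold (1.25 ± 0.31, adjusted p = 0.06, edgeR). Thinned to 1500 UMIs, a *Fos* UMI was found in 77.8% of tumour-bearing and 12.2% of naïve endothelial cells by the median (unthinned 84.6 and 17.4%). In oligodendrocytes the medians were 45.3 and 6.33% (unthinned 57.5 and 9.96%), and in the tumour cells 66.7% (unthinned 87.2%).

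Genes outside these lists also rose without overlap, among them *Snx10*, *Ccnd1* and *Tubb3*. *Snx10*, a sorting nexin of endosomes, had 9.17 and 0 CPM in the naïve libraries and 77.2 to 348 CPM in the tumour-bearing ones (log2 fold change 4.92 ± 0.72, adjusted p = 0.00767, edgeR). *Ccnd1*, cyclin D1, rose from 4.58 and 11.2 to between 61.8 and 313 CPM (4.45 ± 0.76, adjusted p = 0.017, edgeR), and *Tubb3*, a tubulin best known from neurons, from 68.8 and 50.4 to between 189 and 558 CPM (2.53 ± 0.44, adjusted p = 0.017, edgeR). On the scale of all UMIs, *Ccnd1* in the oligodendrocytes was 51.3 to 254 CPM, below the 810.3 to 1536 CPM of the tumour cells in the same libraries and below the 309.8 to 1201 CPM of their lowest 1000 barcodes. *Col11a1*, a collagen gene of the tumour cells outside the rule, was at 0 in both naïve libraries and between 24.2 and 316 CPM in the tumour-bearing ones, at least 16.2-fold higher.

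Levels outside the oligodendrocytes were measured for every gene that rose, because droplets also capture free RNA. In the tumour-bearing libraries, between 3 and 13 of the 30 genes were higher in the oligodendrocytes than in both the other kept cells and the lowest 1000 barcodes of the table, with 13 in KO early and 3 in WT intermediate, against 4 and 2 in the naïve libraries. For *B2m*, on the scale of all UMIs, the oligodendrocytes had 5330 and the lowest barcodes 5220.0 CPM in WT early, 10632 and 8362 in KO early, 603 and 2946 in WT intermediate, 6343 and 7365 in KO intermediate, 2001 and 2590.0 in WT late and 9018 and 7208 in KO late. The tumour cells had between 2854 and 8990 CPM of *B2m*. *H2-D1* stood above the lowest barcodes in WT early and the 3 KO tumour-bearing libraries, for example at 4538 against 2812 CPM in KO early, and below them in WT intermediate and WT late. The part of free RNA in the sums was not tested. The astrocytes of the same libraries had 688 CPM of *B2m* in WT early and 2100.1 in KO early, below the lowest barcodes of these libraries.

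The genes that fell were mostly transcripts of other brain cells. *Ttr*, transthyretin of the choroid plexus, had 614 and 3622 CPM in the oligodendrocytes of the naïve libraries and 79.9, 0, 61.8, 60.6, 0 and 139 CPM in the tumour-bearing ones, without overlap (log2 fold change -4.69 ± 0.57, adjusted p = 0.00242, edgeR). The lowest barcodes of the naïve libraries held far more of it, 10603 and 13297 CPM of all UMIs against 491 and 2960 CPM in the oligodendrocytes. Thinned to 1500 UMIs, a *Ttr* UMI was found in 60.3% of naïve oligodendrocytes, in 62.8% of naïve astrocytes and in 59.4% of naïve endothelial cells, and in 7.15, 9.09 and 7.69% of these cells in the tumour-bearing libraries (medians over libraries; unthinned 78.2, 76.9 and 75.5% against 17.4, 9.09 and 15.4%). The share was thus similar in all 3 cell types, and the part of free RNA in it was not tested.

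*Sparcl1*, a matricellular protein of astrocytes and vessels, fell from 866 and 918 CPM to 156 in WT early, 297 in KO early, 139 in WT intermediate, 84.8 in KO intermediate, 97.1 in WT late and 104 in KO late (log2 fold change -2.65 ± 0.33, adjusted p = 0.00242, edgeR). *Clu* and *Slc4a4*, an apolipoprotein and a bicarbonate transporter of astrocytes, changed by -2.32 ± 0.40 and -4.09 ± 0.80 on the log2 scale (adjusted p of 0.017 and 0.0254, edgeR). Of 6 tested astrocyte genes outside the rule, *Clu* and *Slc4a4* fell, beside 0.34% of all genes tested. Of the same 6 genes, 5 did not overlap, beside 5.63% of all genes tested, and the median of the 6 was -1.72. The summed astrocyte list was 1320 and 1400 CPM of all UMIs in the naïve oligodendrocytes and 389 to 840 CPM in the tumour-bearing ones. In each library between 6 and 8 of the 8 genes that fell and lie outside the rule were lower in the oligodendrocytes than in the lowest barcodes. Kept cells also included fewer astrocytes in the tumour-bearing libraries, 3 to 22 each against 111 and 109, and the part of their free RNA was not tested. *Serpine2* and the transcript *Gm37421* fell as well (-2.64 ± 0.59 and -1.72 ± 0.38). *Gja1*, *Slc1a2* and *Slc1a3* were also lower, but they belong to the rule that chose the cells and are not read as results.

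Among the mitochondrially encoded genes, 1 of 7 tested fell, beside 0.34% of all genes tested. *mt-Co1*, a subunit of cytochrome c oxidase, had 1242 and 1539 CPM in the naïve libraries against 572 in WT early, 454 in KO early, 448 in WT intermediate, 206 in KO intermediate, 332 in WT late and 197 in KO late (log2 fold change -1.97 ± 0.32, adjusted p = 0.0117, edgeR). All 7 tested genes had negative log2 fold changes with a median of -0.73, and 5 did not overlap, beside 5.63% of all genes tested. *mt-Cytb* and *mt-Nd1*, the most abundant of those that missed the threshold, changed by -0.55 ± 0.25 and -0.66 ± 0.24 (adjusted p of 0.44 and 0.28, edgeR). *mt-Co1* was lower in the other kept cells too, at 871 and 876 CPM of all UMIs in the naïve libraries and 130.4 to 236 CPM in the tumour-bearing ones.

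**Figure D4:**
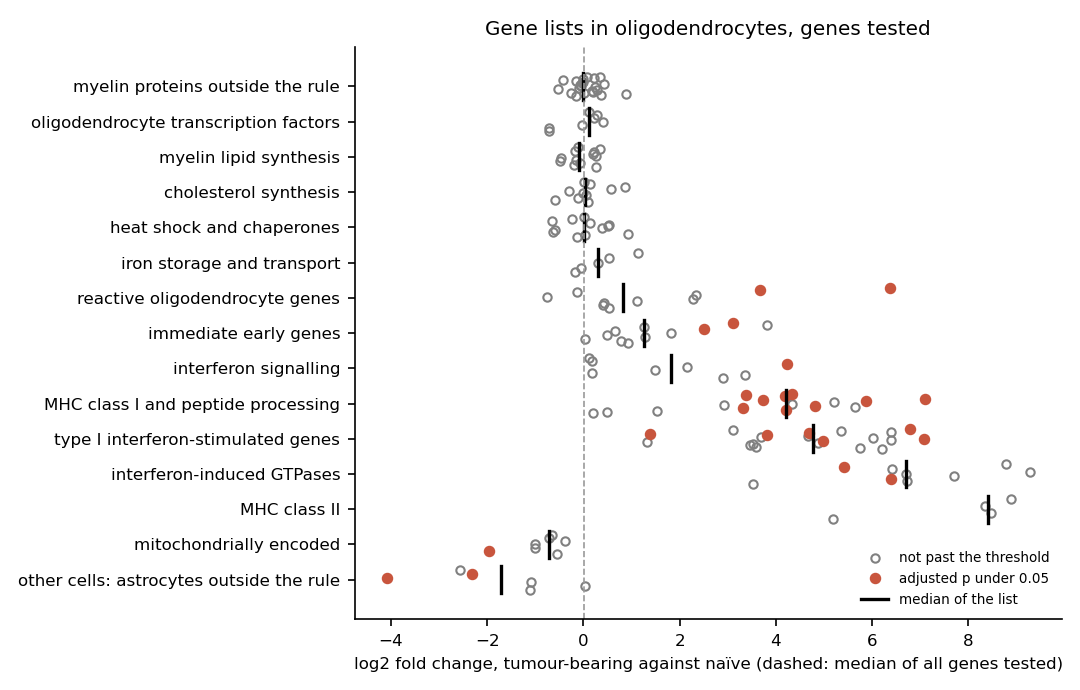
Log2 fold changes, tumour-bearing over naïve, of the tested genes of each list, with 1 point for each gene, filled where its adjusted p was under 0.05, a black line at the median of the list and a dashed line at the median of all genes tested. The lists of MHC class I and interferon genes lie to the right of 0, the astrocyte and mitochondrial lists to the left, and the myelin list is centred on 0.

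Markers of other cells were counted in the oligodendrocytes themselves. The microglia and macrophage list summed to 939 and 1089 CPM of all UMIs in the naïve libraries and to 435 in WT early, 432 in KO early, 12.8 in WT intermediate, 117 in KO intermediate, 2801 in WT late and 5859 in KO late, and none of its 8 tested genes passed the threshold. Lymphocyte markers were at 0 in the naïve oligodendrocytes, and reached 103 CPM in WT early and 61.0 in WT late. The tumour genes outside the rule summed to 25.7 and 22.9 CPM in the naïve libraries and 106 to 733 CPM in the tumour-bearing ones. When members past the limit for immune-cell genes given above were left out, 316 oligodendrocytes remained. Members below that limit were kept, whatever tumour or other non-immune markers they carried. In this set 42 genes rose and 15 fell, and *B2m* (log2 fold change 5.75), *Serpina3n* (7.11), *C4b* (3.74) and *Fos* (4.24) were still higher. Leaving out members with tumour markers outside the rule was not tested. MHC class II genes, typical of antigen-presenting cells, were at or near 0 in the naïve libraries, and *Cd74* reached 2262 CPM in KO late, 248 in WT early and 0 in WT late, without passing the threshold (adjusted p = 0.13, edgeR).

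Whether the response was particular to oligodendrocytes was tested against astrocytes and endothelial cells of the same libraries, as the difference between the log2 fold changes of both cell types. WT intermediate, with 3 astrocytes and no endothelial cell, was left out of these fits. Against astrocytes (287 with the 3 of WT intermediate counted in), the change in oligodendrocytes was larger for 9 of 3996 genes (0.225%) and smaller for 6 (0.15%). *B2m* went from a mean of 314 to 8649 CPM in oligodendrocytes and from 487 to 2027 CPM in astrocytes, a difference of 2.76 ± 0.53 on the log2 scale (adjusted p = 0.00409, edgeR). *Snx10* had the lowest adjusted p, with 4.87 and 219 CPM in oligodendrocytes and 127 and 94.4 CPM in astrocytes (5.40 ± 0.89, adjusted p = 0.000478, edgeR). *H2-K1*, *H2-T23* and *Psme1* also changed more in oligodendrocytes, by 2.23 ± 0.51, 4.85 ± 1.12 and 3.53 ± 0.85. *H2-D1*, *Psmb8* and *Gbp3* were not among the genes found to differ from astrocytes. Thinned to 1500 UMIs, a *Psmb8* UMI was found in 33.3% of tumour-bearing and 2.29% of naïve astrocytes by the median, beside 33.6 and 0.781% of oligodendrocytes. For *H2-D1* the medians were 37.5 and 11.4% in astrocytes and 72.6 and 6.83% in oligodendrocytes. *Slc4a4* fell further in oligodendrocytes, by -3.49 ± 0.65 relative to astrocytes, in which it stood at 3089.7 and 2362 CPM. The oligodendrocytes held 61 *Slc4a4* UMIs in the naïve and 7 in the tumour-bearing libraries, and the part of free astrocyte RNA was not tested.

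Against 202 endothelial cells, the change was larger for 25 of 4744 genes (0.527%) and smaller for 15 (0.316%). Endothelial cells of naïve brain already carried these transcripts. *B2m* had a mean of 3638 CPM in naïve and 8071 in tumour-bearing endothelial cells, and 328 and 8316 CPM in oligodendrocytes, a difference of 3.47 ± 0.54 (adjusted p = 0.000471, edgeR). *H2-D1* went from 1619 to 2975 CPM in endothelial cells and from 129 to 3700.1 CPM in oligodendrocytes (3.86 ± 0.58). *Gbp3*, *Psmb8*, *Irgm1*, *Rtp4*, *Ifit1* and *Oasl2* changed more in oligodendrocytes as well, with differences of 3.35 to 6.15. *Sat1*, a polyamine acetyltransferase, had means of 149 and 863 CPM in naïve and tumour-bearing endothelial cells and stood at 189 and 146 CPM in oligodendrocytes (-2.93 ± 0.49). *Pdlim1* and *Bmp2* were at 0 in naïve endothelial cells and had means of 233 and 317 CPM in tumour-bearing ones, against 176 and 117 CPM for *Pdlim1* in oligodendrocytes.

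**Figure D5:**
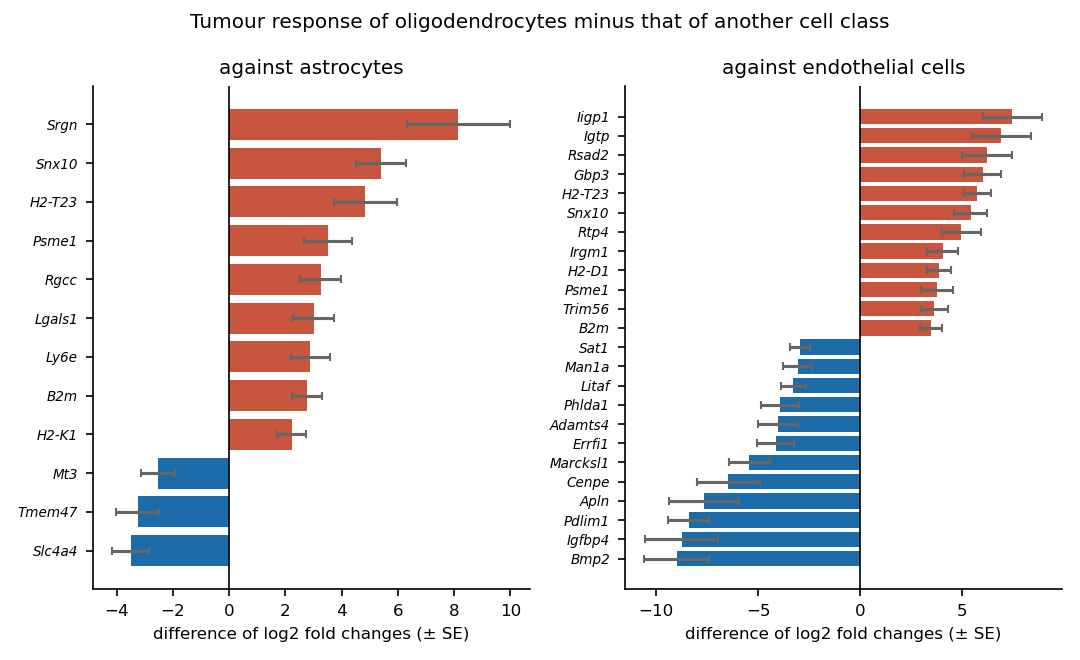
Difference between the log2 fold change in oligodendrocytes and that in astrocytes (left) or endothelial cells (right) for genes past the threshold, with whiskers for the standard error. Genes of the astrocyte rule are left out and up to 12 genes in each direction are shown. MHC class I genes lie to the right of 0 in both panels.

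Between genotypes there was 1 library at each stage and no test. The MHC class I list of the oligodendrocytes was higher in KO than in WT at the early stage (25864 against 15412 CPM), the intermediate stage (17975 against 2255 CPM) and the late stage (25272 against 6126 CPM), and similar in the naïve libraries (1629 against 1976 CPM). *Fos* was higher in KO at the early stage and lower in KO at the other stages. Members past the limit for immune-cell genes made up 36% in KO early and 16.3% in WT early. At the late stage they made up 26.9% in KO and 8.33% in WT, and at the intermediate stage 0% in both. Their part in the difference between genotypes was not tested. The WT and KO libraries also differed in sex, by the study's methods, and in index set at the early stage (WT female and second set, KO male and the other set) and at the intermediate stage (WT male and the other set, KO female and second set), and genotype, sex, index set and mouse cannot be told apart there.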

How the data were processed

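Drop-seq libraries from 6 tumour-bearing and 2 naïve brain samples were analysed, 1 for each genotype and stage. Per the submitters' notes, the authors used bcl2fastq 2.0 and STAR with GRCm38 (mm10). The deposited tables hold raw UMI counts for 3000 barcodes each, with no cell filter or annotation, so cells were filtered here as stated in the report. Doublets were not called, and the deepest 5% of members were left out as an alternative.

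UMIs were summed over the oligodendrocytes of each library (Python 3.11.15, R 4.3.3). The main test was edgeR 4.0.16 (quasi-likelihood, TMM, filterByExpr, genotype as covariate) with Benjamini-Hochberg adjustment at 0.05. Differences in response between cell types were fitted with the library as a block. Astrocytes were kept cells with the astrocyte genes at 80 or more and endothelial cells those with at least 3 endothelial markers summing to 20 or more per 10000 UMIs, both below the oligodendrocyte and tumour thresholds. Shares were compared by exact permutation, and shares of cells with a UMI after thinning to 1500 UMIs. The scripts were tested on simulated counts. The study's test across single cells was not used, because cells of 1 library are not replicates.

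Genes named were those past the threshold without overlap with the lowest adjusted p, up to 12 in each direction, those past the threshold in the gene lists, and the most abundant list members that missed it. Members and lists were chosen with earlier results of these data known. Gene positions are from GENCODE M21 and promoters from RefSeq. Alternatives were RLE size factors, DESeq2 1.42.0, no filter on low counts, no genotype covariate, 500 genes per cell and a marker minimum of 40. In others, members with immune-cell genes or the deepest members were left out. Further ones were equal cells per library, the second index set, male tumour-bearing mice and leaving out each library. Intervals, floors and limits cover counting error only. Results on some genes are not reported here.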

Additional observations from a re-analysis of the deposited data

Results flagged for a closer look

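Among the 35 sets of tumour-bearing library values examined for a library far from the rest, 5 had one, where chance gives about 1 in 20. KO early stood far above the other tumour-bearing libraries for *Ifi27l2a* (2600.4 CPM after TMM scaling, the next library at 1113) and for *Sparcl1* (297 CPM). WT early stood apart for *Slc4a4* (25.2 CPM), and WT late for *Serpine2* (113 CPM) and for *Col11a1* (316 CPM).

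The change between naïve and tumour-bearing libraries differed between oligodendrocytes and astrocytes by the test of the difference itself. In log2 units the change in oligodendrocytes exceeded that in astrocytes by 5.40 for *Snx10*, 4.85 for *H2-T23*, 3.53 for *Psme1*, 3.25 for *Rgcc*, 2.76 for *B2m* and 2.23 for *H2-K1*. It was below that in astrocytes by a difference of -3.49 for *Slc4a4* and -3.25 for *Tmem47*.

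Against endothelial cells the difference was 6.15 for *Oasl2*, 6.08 for *Ifit1*, 5.99 for *Gbp3*, 5.73 for *H2-T23*, 5.41 for *Snx10*, 4.96 for *Rtp4* and 4.04 for *Irgm1*. It was 3.86 for *H2-D1*, 3.77 for *Psme1*, 3.47 for *B2m*, 3.35 for *Psmb8* and 2.47 for *H2-K1*. Negative differences were found for *Bmp2* (-8.98), *Pdlim1* (-8.40), *Sat1* (-2.93) and *Sparcl1* (-2.06). The values for *Oasl2*, *Ifit1*, *Bmp2* and *Pdlim1* involve a group at 0 counts and depend on the prior count of the fit.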

How the results depend on the processing

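Each of the 30 genes that rose and 11 that fell kept its direction in every alternative in which it was tested. Over 701 combinations of a named gene (34 in all) with an alternative, 554 kept the call, 147 lost it and none reversed. The 30 higher and 11 lower genes became 66 and 13 with DESeq2, 154 and 75 without a filter on low counts, 20 and 9 without the genotype covariate (19 and 9 of them called before), 52 and 19 at 500 genes per cell, 48 and 20 at a marker minimum of 40, 8 and 5 with equal cells per library, 74 and 34 in the second index set, and 93 and 31 with male tumour-bearing mice. Leaving out each library gave 0 to 59 higher and 0 to 20 lower genes. The lowest counts came without KO naïve (0 and 0, 167 genes at an unadjusted p under 0.05), WT naïve (4 and 3) and KO early (15 and 12), and fewer naïve samples leave less to estimate the spread from. Chosen after seeing the data, WT libraries alone gave 14 and 14 and KO libraries alone 51 and 9. Against astrocytes, the 9 larger and 6 smaller changes became 1 to 19 and 1 to 13 when each library was left out, with 1 and 1 without KO naïve or KO early, and the smaller changes numbered 16 with RLE size factors and 17 at 500 genes per cell. Against endothelial cells, the 25 larger and 15 smaller changes became 11 to 34 and 5 to 18 when each library was left out, and the larger ones 40 without the filter and 38 at 500 genes per cell. The share difference of 1.16 points ran from -0.607 to 2.67 points when each library was left out, turning negative without KO naïve (-0.354), WT intermediate (-0.607) or WT late (-0.409), and was 4.87 points at 500 genes per cell (exact permutation p = 0.357) and -10.5 points over all kept cells, where tumour cells enter the denominator. Tumour-bearing and naïve libraries came from different mice and could not be paired beyond the genotype covariate, whereas cell types were compared within libraries. Depth limits low genes, since KO early held 69412 UMIs in 25 oligodendrocytes. The causes of other changes were not tested.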

Other observations

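Genes of precursors and newly formed oligodendrocytes were scarce in the mature cells of both groups. *Pdgfra*, the receptor that marks precursors, had no UMI in the oligodendrocytes of any tumour-bearing library, and only *Enpp6* and *Fyn* of 15 listed genes had enough UMIs to be tested, with log2 fold changes of 0.26 ± 0.32 and -0.00 ± 0.29 (edgeR, neither past the threshold). *Opalin*, a membrane protein of mature oligodendrocytes, had 1499 and 1601 CPM after TMM scaling in the naïve libraries and from 631 in WT late to 1699 in WT early in the tumour-bearing ones (-0.42 ± 0.30, adjusted p = 0.71, edgeR).

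Of 17 cytokine, chemokine and receptor genes, 5 were tested and none passed the threshold. *Cd274*, which encodes the T cell inhibitory ligand PD-L1, had no UMI in the 142 naïve oligodendrocytes. It stood at 156 CPM in WT early, 34.9 in KO early, 15.4 in WT intermediate, 109 in KO intermediate, 0 in WT late and 186 in KO late, and was at least 13.2-fold higher over the tumour-bearing group (adjusted p = 0.14, edgeR). *Csf1*, a growth factor of microglia, lay at 110.0 and 174 CPM in the naïve libraries and at 105 to 201 CPM in the tumour-bearing ones.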
